A study of Rattus norvegicus with 4 samples.

Results

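The genes described here encode 5 matrix metalloproteases (Mmp8, Mmp9, Mmp12, Mmp13 and Mmp14), their tissue inhibitors Timp1 and Timp2, and the urokinase Plau with its receptor Plaur. They were picked out by gene symbol, through the RefSeq accession of each probe. The choice was made with earlier results of these data known. All 9 were on the array, 7 with 1 probe and 2 with 2 probes, out of 16581 named genes. The cells were NR8383, an alveolar macrophage line obtained by lavage of a normal rat lung, measured after 20 passages and grown as a mixture of adherent and floating cells. The 4 cultures analysed here were kept for 4 h with Fe2O3 particles (NRCWE018, 2 µg/mL), and RNA of each was hybridised to 1 single-colour array. The study also had cultures without Fe2O3. These were not analysed here, so no value below is an effect of the particles, and differences are differences between exposed cultures.

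The cultures carried macrophage transcripts. On all 4 arrays, 10 of 12 macrophage markers were above background (Cd68, Csf1r, Lyz2 and Pparg among them), whereas Adgre1 and Marco, which alveolar macrophages usually carry, were above background on no array. Also above background on all 4 arrays were 2 of 7 neutrophil markers (Camp and S100a8) and 1 of 8 fibroblast markers (Dcn). Of the lung epithelium markers 0 of 6 were, and of the endothelium markers 3 of 5 (Pecam1, Cdh5 and Vwf). The share among all named genes was 50.5%. The 75th percentile of the signal, to which levels are scaled, lay between 756.5 and 1082, lowest on replicate 4. Between 37.8% and 41.2% of probes were well above background, and no spot was saturated. A level is log2 of the spot's signal over that percentile, so that 0 is the percentile itself and each unit is a doubling. The brightness of different probes is not comparable, and levels are therefore set side by side only for the same probe on different arrays.

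Matrix metalloproteases are zinc-dependent enzymes that cleave collagens, elastin, gelatin and many signalling proteins outside the cell. Most are secreted as inactive precursors, and tissue inhibitors of metalloproteases (TIMPs) bind and block the active enzymes. Urokinase, held at the cell surface by its receptor, turns plasminogen into plasmin, a protease that degrades fibrin and can activate metalloprotease precursors. Alveolar macrophages are known for the macrophage elastase MMP12 and the gelatinase MMP9, both linked to matrix breakdown in the lung. Transcription of several of these genes is classically controlled through AP-1, a dimer of JUN and FOS family proteins that binds sites near the transcription start.

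Upstream sequence was available for 7 of the 9 genes, in RefSeq's promoter table for the assembly GRCr8, and the 250 bases before each start were searched. The AP-1 site TGANTCA reads the same on both strands. It was found in Mmp12, Mmp13 and Plaur, beginning at -87, -66 and -83 relative to the start, and in 6.34% of 33469 promoters in the table. Timp1 held no such match but had TGAGTAA, a related AP-1 element known from this gene, at -108. That motif, or its reverse complement, was in 2.38% of promoters, and was searched after the sequence had been seen. TATAAA on either strand, found in 12.9% of promoters, was present in Mmp12, Mmp13 and Mmp8 (at -39, -47 and -30, in Mmp8 on the reverse strand) and in none of Timp1, Timp2, Plau and Plaur. The GC content of the 250 bases was 45.6% in Mmp12, 44.4% in Mmp13 and 72% in Timp2, against a median of 51.2% over the table. The 120 bases before the start are shown for 5 genes, because Mmp12 and Mmp13 hold a match to both motifs and differed in detection below, and because Timp2, which was bright on every array, has neither. Matches to the searched motifs are in capitals. A match describes the letters and was not tested as a binding site.
Mmp12 (GRCr8 chr8:12866532-12866651, plus strand): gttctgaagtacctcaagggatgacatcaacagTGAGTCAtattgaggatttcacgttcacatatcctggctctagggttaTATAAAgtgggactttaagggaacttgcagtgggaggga
Mmp13 (GRCr8 chr8:12782709-12782828, plus strand): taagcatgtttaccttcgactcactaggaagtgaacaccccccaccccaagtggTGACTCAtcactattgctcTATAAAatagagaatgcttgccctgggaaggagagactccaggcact
Plaur (GRCr8 chr1:89181243-89181362, plus strand): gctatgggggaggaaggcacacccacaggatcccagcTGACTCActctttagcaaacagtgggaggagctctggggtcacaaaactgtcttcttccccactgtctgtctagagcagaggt
Timp1 (GRCr8 chrX:3771123-3771242, minus strand): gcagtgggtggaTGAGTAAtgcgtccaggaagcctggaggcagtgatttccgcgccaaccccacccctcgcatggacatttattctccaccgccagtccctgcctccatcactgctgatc
Timp2 (GRCr8 chr10:104089215-104089334, minus strand): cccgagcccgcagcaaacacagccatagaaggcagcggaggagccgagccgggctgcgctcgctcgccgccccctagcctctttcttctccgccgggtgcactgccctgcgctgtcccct

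The system was detected in part. Of the 9 genes, 4 were above background on all 4 arrays (Mmp9, Mmp12, Timp2 and Plaur), 2 on 2 arrays (Timp1 and Plau) and 3 on none (Mmp8, Mmp13 and Mmp14). Among all 16581 named genes the share detected on every array was 50.5%, so the share among the members was close to that of genes in general. A probe spotted once counted as above background where Feature Extraction marked its spot as well above the local background, and a probe with repeat spots where more than 50% of its used spots were marked. The lowest level of any probe that met this lay between -5.65 and -5.04, depending on the array. By the scanner software's weaker mark, positive and significant, Timp1 and Plau also counted as detected on all 4 arrays, which made 6 of 9.

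**Figure D1:**
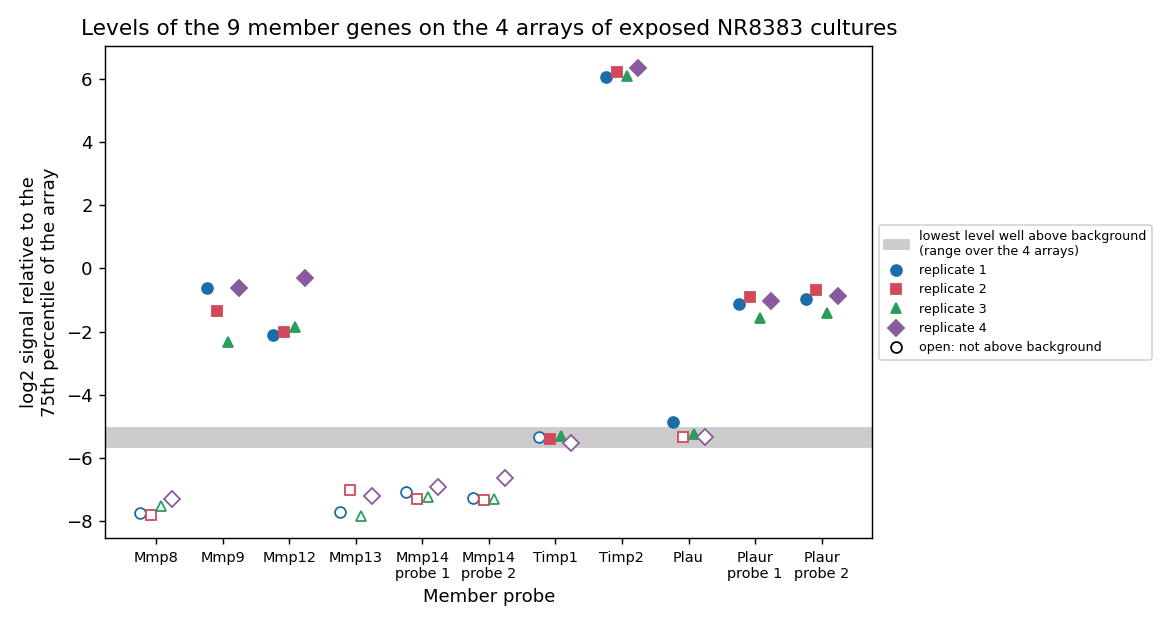
Log2 signal of each member probe relative to the array's 75th percentile (vertical axis) on the 4 arrays, 1 point per array, filled where the probe was above background. Mmp9, Mmp12, Plaur and Timp2 are filled throughout, Timp1 and Plau lie in or near the grey band of the dimmest detected probes (-5.65 to -5.04; Plau on replicate 1 is above it, at -4.85), and Mmp8, Mmp13 and Mmp14 lie under it; heights are to be compared within a probe only.

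Mmp9 encodes gelatinase B, a secreted enzyme that cleaves gelatin and type IV collagen. Its level was -0.61, -1.36, -2.32 and -0.63 in replicates 1 to 4 (-1.23 ± 0.80, SD, n = 4). Replicates 1 and 4 were nearly level, replicate 2 was lower and replicate 3 lowest, a range of 1.70 on the log2 scale or 3.25-fold. The processed signals behind these levels were 700, 382, 217 and 490, and Feature Extraction's own error of each spot was between 10% and 10.2%. Among 21 other probes of like level that were spotted 10 times, the median SD between repeat spots of 1 array was 0.09. Bright spots within 5 rows and 5 columns of the Mmp9 spot deviated from their own means by medians of -0.02, -0.02, 0.03 and 0.04, and all its neighbours, dim ones included, by -0.16, -0.14, -0.24 and 0.37. The low value of replicate 3 was thus not shared by the bright spots around it. Mmp9 had 1 probe in 1 spot per array, and no second probe could be set beside it.

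Mmp12 encodes macrophage elastase, which degrades elastin and is made mainly by macrophages. Its level was -2.10, -2.00, -1.86 and -0.29 in replicates 1 to 4 (-1.56 ± 0.85, SD, n = 4). Replicates 1 to 3 lay close together and replicate 4 stood above them, 3.50-fold over the lowest. The processed signals were 250, 245, 298 and 619, so the spot of replicate 4 was the brightest also before scaling, although that array had the lowest 75th percentile. The spot lay near a corner of the array, in row 379 of 384 and column 159 of 164. Bright spots around it had median deviations of -0.15, -0.01, -0.10 and 0.24, against 1.27 for Mmp12 itself on replicate 4. The part of this local rise in the Mmp12 value was not tested. The median SD between repeat spots at this level was 0.09, over 22 probes.

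The collagenases Mmp8 and Mmp13 and the membrane-anchored protease Mmp14 were not well above background on any array. Mmp8, known as neutrophil collagenase, had processed signals between 4.4 and 5.91, with an error of 80.3% to 100% of the signal. Mmp13, collagenase 3, had signals between 4.74 and 7.65, with an error of at least 59.6%. These signals were about as large as their own error and have no order. Mmp14, which cleaves collagen at the cell surface and activates the precursor of MMP2 together with TIMP2, had 2 probes of 10 spots each. Of the used spots, 0 were well above background on any array with either probe, and the probe means lay between -7.33 and -6.64. Of the 7 neutrophil markers, Camp and S100a8 were above background on all 4 arrays and Elane, Prtn3, Ltf, S100a9 and Cxcr2 on none.

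Mmp8, Mmp12 and Mmp13 belong to a metalloprotease cluster on rat chromosome 8. In the order of the RefSeq table, the metalloproteases of the cluster run Mmp13, Mmp12, Mmp1b, Mmp3, Mmp1, Mmp10, Mmp8, Mmp27, Mmp20 and Mmp7. No probe was matched to Mmp1b. Of the other 9, Mmp12 and Mmp7 were above background on all 4 arrays, Mmp3 on 2 arrays, and Mmp13, Mmp1, Mmp10, Mmp8, Mmp27 and Mmp20 on none. Mmp12 was thus detected beside Mmp13, which was not. Mmp3, the stromelysin 1 gene, was at -5.21, -4.95, -5.77 and -3.30 in replicates 1 to 4, highest in replicate 4. Its values in replicates 1 to 3 lay in or near the range of the dimmest detected probes (-5.65 to -5.04). Mmp3 was not in the test of spread described below. Mmp7, matrilysin, was at 0.90, 0.73, 0.82 and 0.41, lowest in replicate 4. In the limma test of spread, Mmp7 had 1.23 times the SD fitted for its level (adjusted p = 0.995). Neither Mmp7 nor Mmp12 passed that test, so no relation between them is read from replicate 4.

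Timp2 encodes an inhibitor that binds MMP2 and MMP14 among others. Its level was 6.05, 6.21, 6.11 and 6.34 in replicates 1 to 4 (6.18 ± 0.12, SD, n = 4), a range of 0.28 or 1.22-fold. All 10 spots were well above background on every array, and the SD between repeat spots was 0.05 to 0.07. Of 88 genes of like level, 51 had an SD between arrays at least as large, and their median SD was 0.14. The highest array was replicate 4, except with quantile normalization, where it was replicate 3. Timp2 thus had the smallest SD of the members above background on all 4 arrays, an SD usual for genes of its level.

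Timp1 encodes an inhibitor of most secreted metalloproteases and is known as an inflammation-responsive gene. Its mean level was -5.35, -5.39, -5.32 and -5.53 in replicates 1 to 4, with an SD between repeat spots of 0.19, 0.43, 0.39 and 0.59. Of the spots used, 3 of 7, 6 of 9, 8 of 10 and 1 of 10 were well above background. On each array all used spots were positive and significant by the weaker of the scanner software's marks. The 4 array means differed by 0.21 at most, with an SD of 0.09, against a median SD of 0.29 among 30 probes of like level that were spotted 10 times. The limma test of spread, described below, did not include Timp1 because it was not above background on all 4 arrays. Timp1 therefore sat at the detection limit, and the number of arrays on which it counts as detected follows from where the limit is placed.

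**Figure D2:**
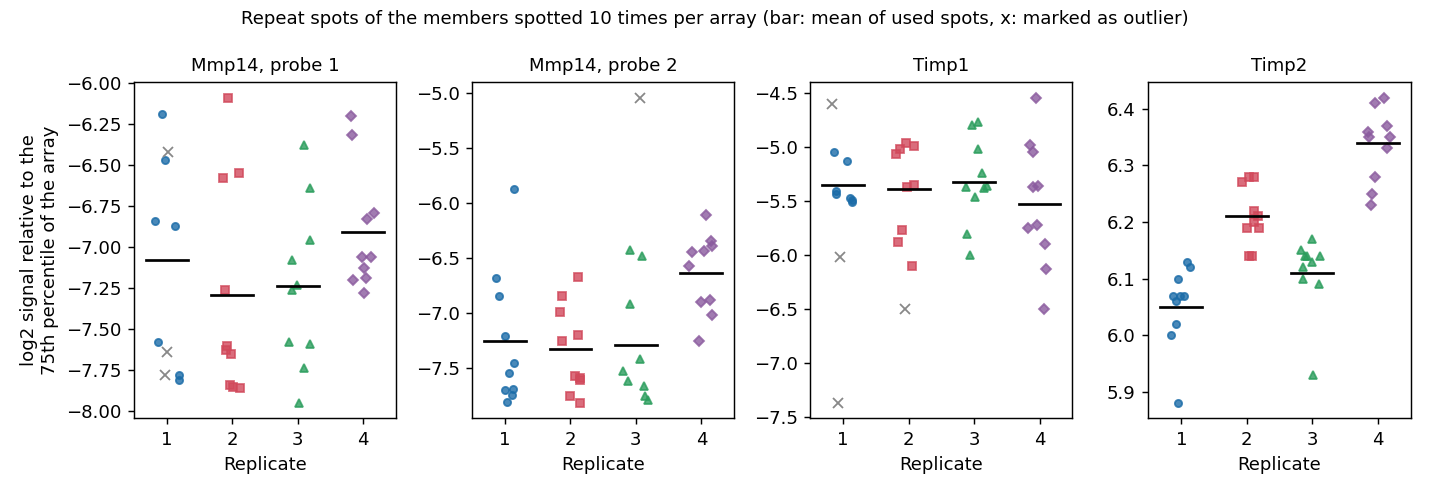
Log2 signal of every spot of the 4 member probes spotted 10 times per array (vertical axes differ between panels), by replicate, with the mean of the used spots as a bar and spots marked as outliers as crosses. Timp2 spots cluster within an SD of 0.05 to 0.07, whereas Timp1 spots scatter with an SD of 0.19 to 0.59 around means that differ by 0.21.

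The receptor of the plasminogen activator system was detected and its ligand was at the limit. Plaur, the urokinase receptor, had 2 probes. The probe that represents the gene was at -0.98, -0.69, -1.40 and -0.86 in replicates 1 to 4 (-0.98 ± 0.30, SD, n = 4), and the other at -1.14, -0.90, -1.58 and -1.02 (-1.16 ± 0.30). Both were highest in replicate 2 and lowest in replicate 3. The spots lay in rows 30 and 120 of the array, but in the neighbouring columns 49 and 50. The deviations of the 2 probes from their own means differed by at most 0.03. The range of 0.71, or 1.64-fold, was therefore measured alike by both probes. Plau, urokinase itself, was at -4.85, -5.33, -5.24 and -5.35, above background on replicates 1 and 3. Its processed signals of 37.0, 24.5, 28.6 and 18.5 had errors of 18.2% to 28.4%, and probes of its level had a median SD of 0.41 between repeat spots. The Plau values differed by 0.50 at most. Plau was not above background on all 4 arrays and so was not in the limma test of spread described below. No difference between cultures is read from these values.

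The design allows 1 test across genes, of whether a gene varied more between the 4 exposed cultures than genes of like level. In limma, the variance of a gene over the 4 arrays was compared with the variance fitted for its level. Of 8376 genes above background on all 4 arrays, 16 passed at an adjusted p of 0.05, which is 0.191%, and 482 (5.75%) had an unadjusted p under 0.05. None of the 4 members tested passed. Mmp12 had 4.08 times the SD fitted for its level (limma adjusted p = 0.153) and Mmp9 3.96 times (limma adjusted p = 0.166). They ranked 26 and 30 among the 8376 genes and were the 2 members among the 482. Of 1078 genes within 0.5 of the mean level of Mmp12, 3 including Mmp12 had an SD at least as large. For Mmp9 the count was 7 of 1119. Plaur had 1.53 times the fitted SD (limma adjusted p = 0.987) and Timp2 0.877 times (adjusted p = 0.995).

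**Figure D3:**
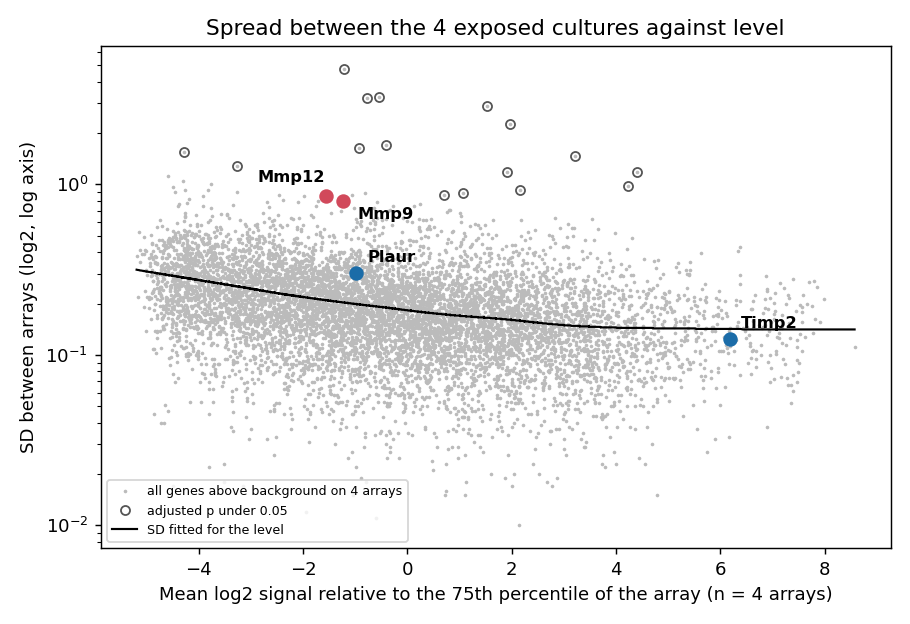
SD between the 4 arrays (vertical log axis) against mean level for the 8376 genes above background on all arrays, with the SD fitted for the level as a line, the 16 genes of adjusted p under 0.05 as open circles, and the members in colour. Mmp12 and Mmp9 lie about 4 times above the line but below every open circle, Plaur is 1.53 times above it and Timp2 just under it.

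The spread of Mmp12 rested on replicate 4 and that of Mmp9 mostly on replicate 3. Without replicate 4, Mmp12 had 0.537 times the fitted SD (limma adjusted p = 0.996), and Mmp9 passed with an adjusted p of 0.0299. Without replicate 3, Mmp9 had 2.27 times the fitted SD (limma adjusted p = 0.764). With normexp background correction, both passed, with limma adjusted p-values of 0.0210 for Mmp12 and 0.0209 for Mmp9. Over the 12 alternatives tried, the adjusted p ranged from 0.0210 to 0.996 for Mmp12 and from 0.0209 to 0.933 for Mmp9. Under the 4 other ways of scaling or correcting the signal, Mmp12 was highest on replicate 4, Mmp9 lowest on replicate 3, and both Plaur probes lowest on replicate 3.

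**Figure D4:**
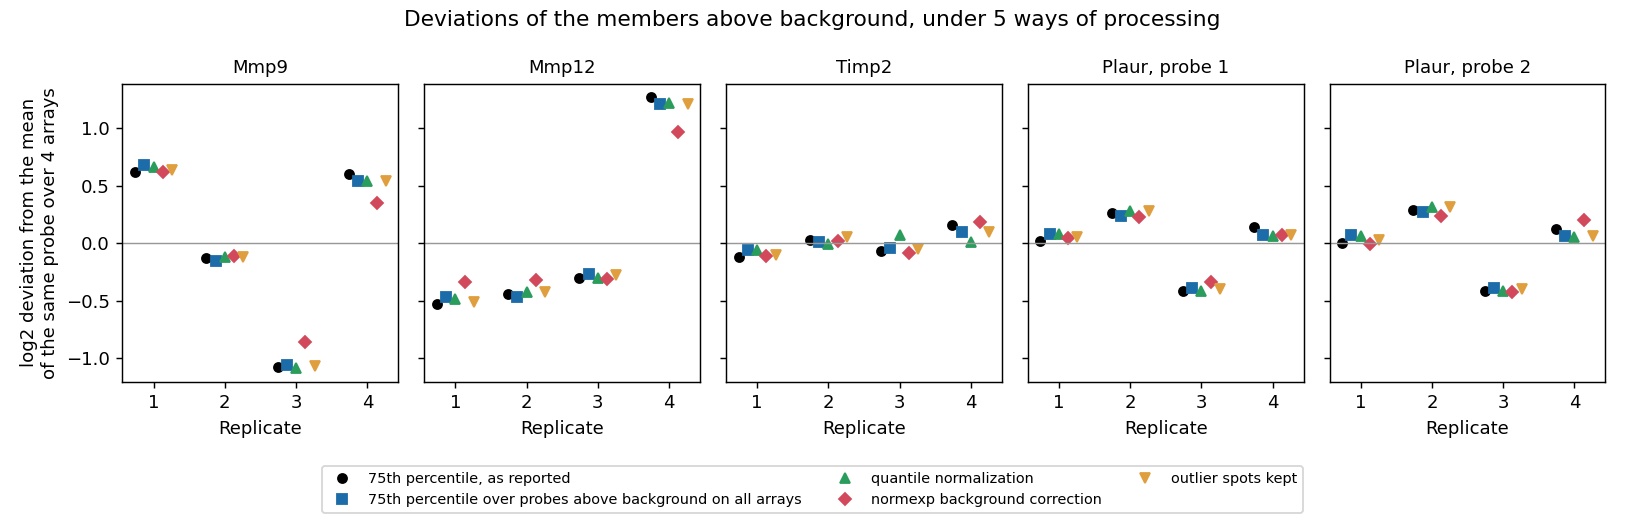
Log2 deviation of each member probe above background from its own mean over the 4 arrays (vertical axis), by replicate, under the processing used here and 4 alternatives. Mmp12 stands out on replicate 4 (0.97 to 1.27) and Mmp9 on replicate 3 (-1.09 to -0.86) under every one of them, whereas Timp2 stays within 0.18 of its mean.

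Mmp9 was high in replicate 1, where Mmp12 was lowest, and replicate 4 was high for both. The genes whose deviations over the 4 arrays lay nearest to those of Mmp9, by the largest difference on any array, were Cox6a2 (0.07), Tbkbp1 (0.36), Ttyh3 (0.39), Usp18 (0.40) and Abcc10 (0.42). For Mmp12 they were Cpa1 (0.23), Glyr1 (0.40), Alox5ap (0.41), Slc39a5 (0.41) and Srd5a2 (0.43). These were picked out of 8375 genes over 4 arrays, describe these arrays only and carry no test.

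Genes that activate metalloproteases or hold them at the cell surface were all above background on the 4 arrays (5 of 5). Of all 16581 named genes 50.5% were, a share to set beside this short list and each list below. The proprotein convertase Furin, which activates MMP14, was at 0.28, 0.00, -0.20 and 0.56 in replicates 1 to 4. Basigin, Bsg, which induces metalloproteases in neighbouring cells, was at 3.37, 3.42, 3.01 and 3.09. The hyaluronan receptor Cd44, a docking site for MMP9, was at 3.44, 3.05, 3.43 and 3.37. Lrp1, an endocytic receptor that clears MMP9 and urokinase complexes, was at -1.15, -1.30, -1.84 and -1.46. None of these 4 passed the test of excess spread (limma adjusted p from 0.923 to 0.995).

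Lipocalin 2, Lcn2, forms a complex with MMP9 that protects the enzyme from degradation, and it was among the 16 genes that passed (limma adjusted p = 0.00131). It was at 5.13, 4.4, 2.72 and 5.34 in replicates 1 to 4, high in replicates 1 and 4 and lowest in replicate 3, as Mmp9 was. The largest difference between the deviations of Lcn2 and Mmp9 on any array was 0.59, and Lcn2 ranked 42 of 8375 genes by this measure. Between Lcn2 and Mmp12 the difference was 1.38, with a rank of 7073. These ranks rest on 4 arrays and carry no test. Mmp9 and Lcn2 are also known as neutrophil transcripts. The summed signal of the 7 neutrophil markers was 0.935, 0.960, 0.820 and 1.07 times the 75th percentile in replicates 1 to 4. It was lowest in replicate 3 and came mostly from the probe of Camp. The sums of macrophage markers (192, 216, 181 and 214) and of the undetected lung epithelium markers (0.0551, 0.051, 0.0432 and 0.0676) were also lowest in replicate 3. Those of fibroblast and endothelium markers were lowest in replicates 2 and 1. Camp was at -0.21, -0.25, -0.38 and -0.04 and did not pass the test of spread (limma adjusted p = 0.995). S100a8, the other neutrophil marker above background on all 4 arrays, was at -4.78, -3.43, -5.18 and -4.11 (limma adjusted p = 0.441). The part of the neutrophil markers in the values of Mmp9 was not tested.

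Of 12 other metalloproteases with a probe, 4 passed background on every array, 3 on some (Mmp2, Mmp3 and Mmp28) and 5 on none (Mmp10, Mmp11, Mmp16, Mmp17 and Mmp23). The membrane-type proteases Mmp15 and Mmp24 were at 2.73, 2.63, 2.11 and 3.06, and at -1.77, -1.75, -2.05 and -1.84, in replicates 1 to 4. Mmp19 was at -2.99, -2.22, -3.36 and -2.55. Mmp15 and Mmp19 were lowest in replicate 3 and had unadjusted p-values of 0.0119 and 0.0370 in the limma test (adjusted p = 0.502 and 0.800). Mmp9 and Plaur were also lowest in replicate 3. The share of all genes lowest there was not counted, so this cannot be called particular to these genes. Genes above background on all 4 arrays deviated from their own means by medians of -0.02, 0.01, -0.03 and 0.07 in replicates 1 to 4. Of 9 ADAM and ADAMTS proteases with a probe, 3 were above background on all 4 arrays. Adam17, the sheddase of TNF, was at -1.49, -1.65, -1.43 and -1.48, Adam10 between -4.05 and -3.50, and Adam15 between 2.26 and 2.78. Adamts4 was above background on 2 arrays and Adam9, Adam19, Adamts1, Adamts5 and Adamts9 on none. The other inhibitors were not detected: Timp3, Timp4 and A2m were above background on no array, so that Timp2 was the only inhibitor of metalloproteases measured here above background on all 4.

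Of 8 other genes of plasminogen activation, 5 were above background on all 4 arrays. Annexin A2, Anxa2, and its partner S100a10, which together bind plasminogen at the cell surface, were at 6.68, 6.80, 6.62 and 6.61, and at 4.20, 4.35, 4.55 and 4.33, in replicates 1 to 4. The plasminogen receptor Plgrkt was at -1.40, -1.23, -0.80 and -1.08. Eno1, an enolase that also binds plasminogen at the surface, was above background too. The probe of plasminogen itself, Plg, was at -1.30, -1.37, -1.73 and -1.12; plasminogen is known as a liver product. The tissue-type activator Plat and Klkb1 were above background on no array and F12 on 1. Among the inhibitors of plasminogen activation, Serpina5 lay between -2.85 and -2.26, and Serpine2, Serpinb2, Serpinf2 and Cpb2 were above background on no array. None of the genes named here and above background on all 4 arrays had an unadjusted p under 0.05 in the limma test of spread. The others were not tested.

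Of 9 partners of the urokinase receptor with a probe, 6 were above background on all 4 arrays. The integrin subunits Itgam and Itgb2, which form the complement receptor CD11b/CD18 that urokinase receptor associates with, were at -0.08, -0.46, -0.77 and -0.25, and at 1.92, 1.87, 1.80 and 2.17, in replicates 1 to 4. Itgb1 was at 1.56, 1.76, 2.03 and 1.92, and Itgb3 at -2.01, -2.25, -2.41 and -2.93. Itgam and Itgb2 were lowest in replicate 3, as Plaur was, whereas Itgb1 was highest there and Itgb3 was lowest in replicate 4. None of these 4 passed the limma test (adjusted p from 0.978 to 0.995). Itga5 and Mrc2 were also above background on all 4 arrays. The matrix protein Vtn, which the receptor binds, and Fpr1 and Egfr were above background on none. Of 11 matrix substrates with a probe, 2 were above background on all 4 arrays, Lamc1 (-2.32 to -1.78) and Sparc (-4.19 to -3.24). Fibronectin, elastin, osteopontin and the collagen genes of the list (Fn1, Eln, Spp1, Col1a1, Col1a2, Col3a1 and Col4a1), with Vcan and Tnc, were on none.

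Regulators of these genes were detected in part. Of 15 transcription factors, 11 passed background on every array, 2 on some (Fos and Ets1) and 2 on none (Fosl1 and Etv4). Among all named genes, 50.5% passed on every array. Of the AP-1 subunits, Jun was at 0.23, -0.11, 0.16 and 0.15, Jund at 3.44, 3.62, 3.23 and 3.55, and Fosb at -1.95, -1.70, -2.47 and -1.71 in replicates 1 to 4. Junb was at -1.68, -1.72, -1.92 and -2.84, lowest on replicate 4 (limma adjusted p = 0.542). Jun, Jund and Fosb were not lowest on that array. Fosl2 was above background on all 4 arrays, and so were Ets2, Spi1, Runx1, Nfkb1, Rela and Sp1. Of 9 inducing cytokines, Tnf (2.44 to 2.86), Il1b (3.58 to 3.92), Il1a (1.23 to 1.76), Tgfb1 (-0.03 to 0.69) and Osm were above background on all 4 arrays and Csf2, Ifng, Il4 and Il10 on none. None of the cytokines above background on all 4 arrays had an unadjusted p under 0.05 in the limma test of spread. The other cytokines were not tested.

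**Figure D5:**
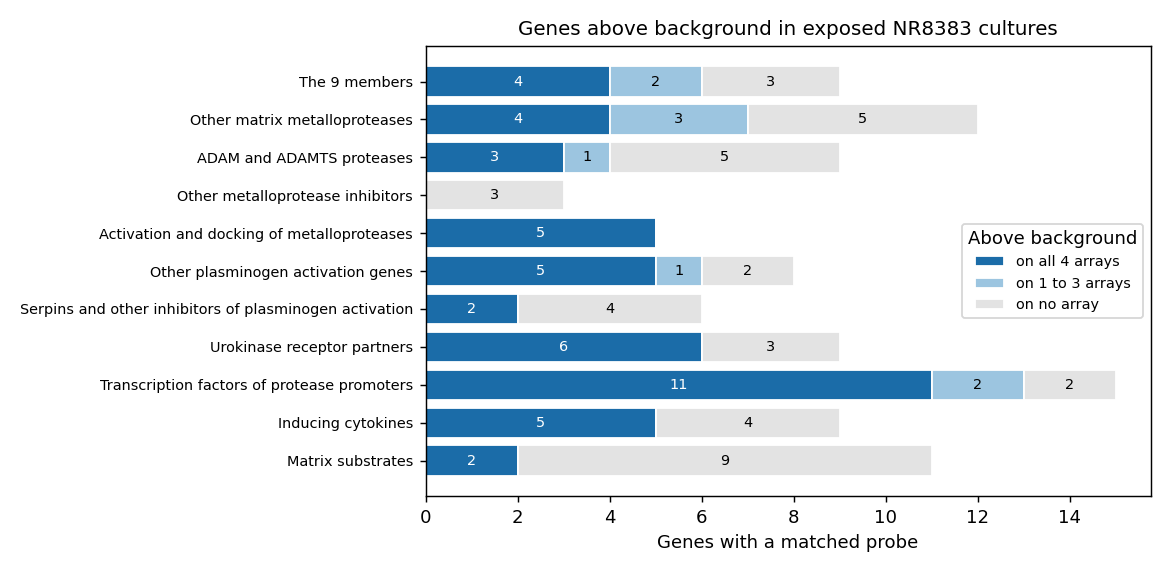
Number of genes with a matched probe (horizontal axis) that were above background on all 4 arrays, on 1 to 3 arrays or on none, for the 9 members and each list of related genes. The members divide 4, 2 and 3, transcription factors 11, 2 and 2, and matrix substrates 2, 0 and 9.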

How the data were processed

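Cy3-labelled RNA of 4 exposed cultures was hybridised to 1 Agilent single-colour array each. The submitters' processing notes name Agilent Feature Extraction 11.0.1.1 as the software with which the authors made the intensity values. Per the file headers, the processed signal intensity was background-subtracted and detrended within each array, with no scaling between arrays. Control spots were left out, and spots marked as outliers were too unless all spots of a probe were marked. Log2 signal was set relative to the array's 75th percentile, and repeat spots were averaged. Of 45598 probes, 21109 matched a RefSeq symbol (GRCr8 table, names only). Where probes of a gene differed, the one detected on more arrays was used, then the brighter one. The test of spread used limma 3.58.1 under R 4.3.3 (robust trended prior, 9.16 prior degrees of freedom, upper-tail F test, Benjamini-Hochberg over 8376 genes). On normal values simulated with the fitted SDs, 65% of 100 genes with 5 times the SD and 91% of 100 with 10 times the SD were called. Of 8176 genes with no added spread, 5 were called. The simulation follows the test's own model, so it cannot show how the test behaves on real arrays. It did not cover 3.96 and 4.08 times the SD, as in Mmp9 and Mmp12. The members and lists were chosen with earlier results of these data known. Of each list the first 4 detected genes, and any with unadjusted p under 0.05, were named with values; others named singly were chosen after their values were seen. The normexp alternative used the median spot signal. With 4 arrays, their number limits the precision. All 4 cultures come from 1 cell line; the study's design calls them biological replicates. One gene of a list of related genes is not reported here.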

Additional observations from a re-analysis of the deposited data

Results flagged for a closer look

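By Dixon's test for 4 values, a single array stood apart in 2 of 43 sets; by chance about 1 in 20 would. Mmp12 was 1, with a gap of 0.869 of its range between replicate 4 (-0.29) and the next array (-1.86). The other was the second Mmp14 probe, with 0.895, at -6.64 on replicate 4 against -7.33 to -7.26 on the others. That probe was not well above background on any array, and its other probe, for the same gene, measured -6.91 on replicate 4, with -7.29 to -7.08 elsewhere. The lowest level of any probe well above background was also higher on replicate 4, at -5.04 against -5.65 to -5.55 on the others. The part of this higher floor in the Mmp14 values was not tested.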

How the results depend on the processing

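The count of members above background on all arrays was 6 in place of 4 with the positive and significant mark, and 4 with the brightest probe of each gene and without each replicate. Of the 8376 genes tested for spread in limma, 157 passed with normexp background correction in place of 16, and 25 with outlier spots kept. With a constant prior variance 5 passed, and without a robust prior 10. Without 1 replicate, detection was redone on the remaining arrays, and from 7 (of 8394 genes tested) to 22 (of 8644) passed. The member count was 2 in place of 0 with normexp, and 0 to 1 without 1 replicate; in 10 of 12 alternatives it stayed 0. The cause was not tested. Another 75th percentile moved the median gene by -3.47 to -3.34, quantile normalization by 9.85 to 9.96 and keeping outliers by -0.24 to -0.15, so levels hold only on their own scale. No paired analysis was possible because all 4 samples form 1 group. Signals near background limit Timp1, Plau and the 3 undetected proteases.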
